A study of Sus scrofa with 14 samples.

Results

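The Notch pathway was followed through 10 of its genes in the pig mammary gland: the receptors NOTCH1, NOTCH2, NOTCH3 and NOTCH4, the ligands JAG1, JAG2, DLL1 and DLL4, and the targets HEY1 and HES1. They were found by symbol, with no count used in the rule, and all 10 were present among the 30071 gene IDs that each of the 14 libraries lists. The libraries came from Sus scrofa and hold counts of unique molecular identifiers (UMIs, 1 per captured RNA molecule). Single nuclei were profiled from mammary glands of multiparous sows, 2 per stage, at day 90 of gestation (G90), day 0 of lactation (L0), day 20 of lactation (L20), and 2 and 7 days after natural involution (PI2 and PI7). 1 Visium tissue section each was available at G90 and PI2, and 1 library of milk cells each at L0 (colostrum) and L20 (mature milk). The labels name no treatment for any group. Breed and age are not among the labels used here, and a stage is represented by 2 animals in the gland and by 1 library in milk or on a section.

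Notch receptors are membrane proteins that are cut when a ligand on a neighbouring cell binds them. The freed intracellular part then enters the nucleus and, with the DNA-binding protein RBPJ and a Mastermind coactivator, switches on targets of the HES and HEY repressor families. In mammary tissue the pathway is known for its part in luminal cell fate, and in blood vessels for arterial identity, sprouting and the coating of vessels by mural cells.

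RBPJ binds DNA at a short core, and windows before annotated gene starts were searched for TGGGAA and its reverse complement TTCCCA on both strands. DLL1 is shown because its window carried more than 1 match. The sequence is RefSeq's for Sscrofa11.1, runs 5′ to 3′ on the plus strand on which the gene lies, and ends at the last base before the start, at chr1:198565-198814. Capitals mark the matches.
DLL1: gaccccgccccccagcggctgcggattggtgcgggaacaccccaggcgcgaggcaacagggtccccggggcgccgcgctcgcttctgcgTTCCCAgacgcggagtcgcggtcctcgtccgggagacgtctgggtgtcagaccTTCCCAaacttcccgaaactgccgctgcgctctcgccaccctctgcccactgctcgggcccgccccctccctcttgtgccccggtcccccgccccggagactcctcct
The DLL1 window held 2 matches, at 161 to 156 and 108 to 103 bases before the start. At least 1 match was found for 3 of the 10 members. The windows are set by the annotated starts, which may not be the true starts of transcription, HES1 with its AT-rich window (38.8% GC) among them. Of 20637 promoter windows of the same length, 5081 (24.6%) held at least 1 match and 693 (3.36%) held at least 2, so a match is a description of sequence and not evidence of a bound site.

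In the same RefSeq annotation, NOTCH2 lies on chromosome 4 from 100951522 to 101152348 and HEY1 on the same chromosome from 56859640 to 56863807, both on the plus strand. DLL1 (198815 to 211346, plus strand) and DLL4 (130376720 to 130386411, minus strand) lie on chromosome 1, NOTCH3 on chromosome 2 (62364507 to 62402348, plus strand) and NOTCH4 on chromosome 7 (24231293 to 24256281, minus strand). JAG1 lies on chromosome 17 (19591248 to 19629659, minus strand) and HES1 on chromosome 13 (131135970 to 131137865, plus strand). NOTCH1 and JAG2 lie on unplaced scaffolds. The counts are per gene, with no split into exon, intron or UTR.

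After filtering, 126833 nuclei, 17571 (L0) and 14514 (L20) milk cells, and 4721 (G90) and 2248 (PI2) spots remained. Gland libraries summed to 18962138 to 53165191 UMIs, with a median of 1382 to 2496 per kept nucleus, the sections to 42815421 and 17906403, and the milk libraries to 84971814 and 46923887. At most 1.52% of the barcodes of the smaller library were shared between any 2 libraries. Nuclei were clustered, and clusters were called X-like from markers, written here without that ending: 69659 luminal epithelial, 10597 fibroblast, 8009 lymphatic endothelial, 6983 macrophage, 6242 T and NK, 4428 myoepithelial, 4285 mural, 3686 blood endothelial, 3238 dividing and 792 adipocyte nuclei. A further 8914 nuclei that raised both macrophage and luminal markers were left unnamed. Levels are given as CPM, counts-per-million, that is the gene's UMIs scaled to the UMIs of all nuclei of that class in that gland. Since CPM is not corrected for gene length, levels are compared within a gene and not between genes. Adipocyte levels rest on 5 glands, and 548 of the adipocyte nuclei came from L20 replicate 2.

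Of all marker lists, the luminal one had the highest sum in the whole gland, at 3524 CPM, as a check of the labelled tissue. For the vascular classes that several results turn on, the sums of the marker lists show how far the classes are apart. Clusters were named from these same lists, so a high sum in the class of that name is no independent check. Blood endothelial markers summed to 5434 CPM in blood endothelial nuclei, 2749 CPM in lymphatic ones and 248 to 617 CPM in the other classes, while lymphatic markers summed to 4947 CPM in lymphatic nuclei and 48 to 313 CPM elsewhere. The mural nuclei were shallow, at a median of 915 UMIs, and also raised 9 of 10 T and NK markers. The full list of 10 mural markers, which includes the smooth muscle genes ACTA2 and MYH11, summed to 2806 CPM in mural and 2913 CPM in myoepithelial nuclei, and so did not separate them. Without those 2 genes the summed level was 813 CPM in mural nuclei, 295 CPM in fibroblasts and 59.7 CPM in myoepithelial nuclei, and the pericyte gene RGS5 stood at 270 CPM against at most 52 CPM elsewhere. PDGFRB did not separate mural nuclei (239 CPM) from fibroblasts (252 CPM), and the myoepithelial transcription factor gene TP63 was at 71.2 CPM in mural and 552 CPM in myoepithelial nuclei. The part of such admixture in the levels was not tested.

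The members differed in the classes that held them. Across the 10 glands NOTCH2 was highest in luminal nuclei and fibroblasts, NOTCH1 in lymphatic endothelium, NOTCH3 in mural nuclei, and NOTCH4, JAG1 and HEY1 in blood endothelium, while DLL4 was high in both endothelial classes and JAG2 and DLL1 were high in both blood endothelial and myoepithelial nuclei. HES1 was broad. The levels by class are descriptions with no test, and neighbours in the order were compared by the difference of log2(CPM + 1) within each gland, called beyond the spread where its mean exceeded its SD over glands.

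**Figure D1:**
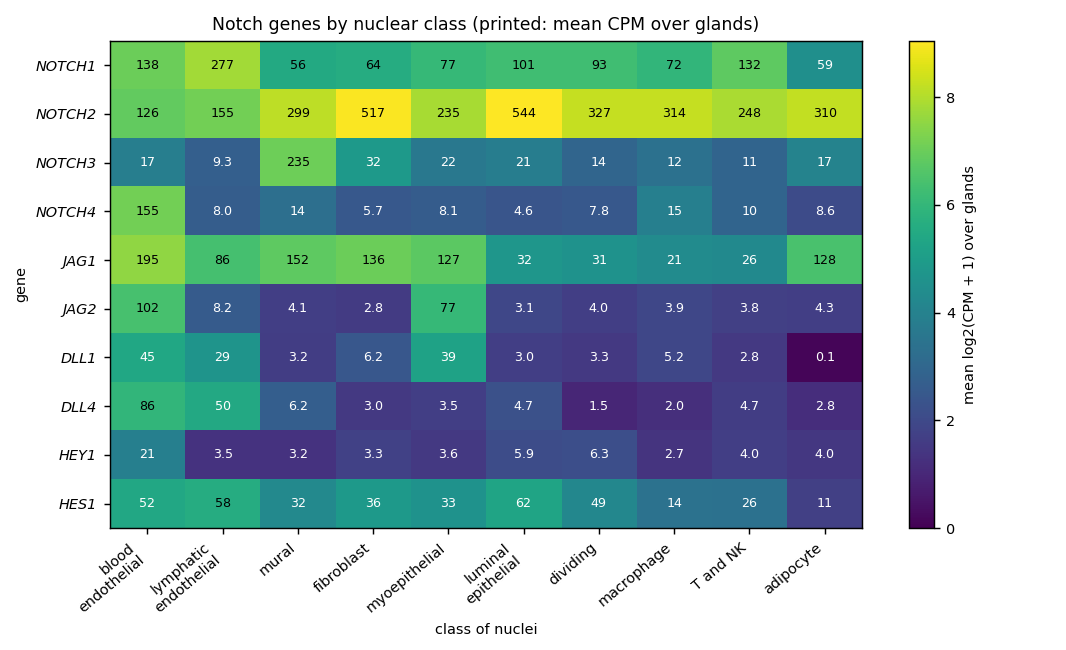
Heat map of the 10 Notch genes (rows) in the named classes of nuclei (columns), with colour for the mean log2(CPM + 1) over glands and the mean CPM printed in each cell. NOTCH4 reached 155 CPM in blood endothelium and at most 15.3 CPM in any other named class, and JAG2 stood out in blood endothelial and myoepithelial nuclei.

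NOTCH1, the receptor known for arterial and T cell fate, was at 277 ± 215 CPM (SD, n = 10) in lymphatic endothelial nuclei, with a lowest gland of 97.8, a median of 213 and a highest of 768. Blood endothelial nuclei followed at 138 ± 54.2 CPM and T and NK nuclei at 132 ± 97.1 CPM, and luminal nuclei were at 101 ± 83.1 CPM. Lymphatic exceeded blood endothelial nuclei by 0.78 ± 0.63 on the log2 scale, and did so in 10 of 10 glands, so that step was beyond the spread. Although its level was lower there, luminal nuclei, the most numerous class, held 56.3% of all NOTCH1 UMIs, close to their 58.1% share of all UMIs. Lymphatic endothelium held 15.6% of them with 4.85% of all UMIs.

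NOTCH2, a receptor of wide use in epithelium and mesenchyme, was counted in more nuclei than any other member. The NOTCH2 gene is also long, at 200827 bases, and the part of gene length in that count was not tested. Luminal nuclei had 544 ± 132 CPM (SD, n = 10), with a lowest gland of 333, a median of 553 and a highest of 795, and a NOTCH2 UMI was seen in 52.9% of them. Fibroblasts were at 517 ± 115 CPM, from 309 to 722. Dividing, macrophage, adipocyte, mural and T and NK nuclei lay between 248 and 327 CPM, with macrophages at 314 ± 84.5 CPM, and myoepithelial nuclei came after them at 235 ± 53.9 CPM. Both endothelial classes sat at the bottom, at 155 ± 69.8 CPM in lymphatic and 126 ± 54.8 CPM in blood vessels, and the step from myoepithelial down to lymphatic nuclei was 0.71 ± 0.63 on the log2 scale, in the same direction in 10 of 10 glands. NOTCH1 and NOTCH2 thus ranked the endothelial classes at opposite ends of their orders.

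NOTCH3, the receptor of vascular smooth muscle and pericytes, was at 235 ± 244 CPM (SD, n = 10) in mural nuclei, with a lowest gland of 14.6, a median of 139 and a highest of 738. Fibroblasts came next at 31.5 ± 13.8 CPM, and the remaining classes were between 9.3 and 22 CPM. The mural excess over fibroblasts was 2.22 ± 1.46 on the log2 scale and was present in 10 of 10 glands. It was 3.99 when clusters were made without Harmony, the step that aligns libraries, and 3.75 when classes came from a marker gate per nucleus. The mural glands fell far apart, at 577 and 14.6 CPM in the PI2 pair and 253 and 738 CPM in the PI7 pair. The 270 mural nuclei of PI2 replicate 2 held only 205961 UMIs of all genes, so its 14.6 CPM rests on few NOTCH3 UMIs.

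NOTCH4, a receptor largely restricted to endothelium, was at 155 ± 76.7 CPM (SD, n = 10) in blood endothelial nuclei. In the glands it counted 74.1 and 81.2 CPM in the G90 glands, 218 and 130 in the L0 glands, 298 and 99.7 in the L20 glands, 199 and 227 in the PI2 glands, and 80 and 143 CPM in the PI7 glands. No gland of any other named class reached its lowest value. Macrophages were next at 15.3 ± 7.89 CPM and the lymphatic endothelium was at only 7.98 ± 6.52 CPM, and blood endothelium exceeded macrophages by 3.23 ± 0.69 on the log2 scale in 10 of 10 glands. With 2.91% of all UMIs, blood endothelial nuclei held 37.4% of the NOTCH4 UMIs.

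JAG1, a ligand used between endothelium, mural cells and epithelium, was counted in most classes. Its level was 195 ± 58.8 CPM (SD, n = 10) in blood endothelial nuclei, with a lowest gland of 115, a median of 213 and a highest of 286. Mural nuclei were at 152 ± 98.9 CPM, fibroblasts at 136 ± 40.8 CPM and myoepithelial nuclei at 127 ± 104 CPM. The last mean rests partly on 1 gland, since myoepithelial JAG1 was 419 CPM in L20 replicate 1 and 60.5 to 120 CPM in the other glands. Blood endothelium exceeded fibroblasts by 0.52 ± 0.34 on the log2 scale in 10 of 10 glands. Lymphatic endothelium (85.9 ± 28 CPM) exceeded luminal nuclei (31.7 ± 19.7 CPM) by 1.62 ± 0.88, again in 10 of 10. Macrophages were at 21.1 ± 7.78 CPM.

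JAG2 had its highest levels in a pair of named classes. Blood endothelial nuclei had 102 ± 44.7 CPM (SD, n = 10), with 80.3 and 8.55 CPM in the G90 glands, 167 and 114 in the L0 glands, 145 and 60.6 in the L20 glands, 105 and 125 in the PI2 glands, and 97.6 and 118 CPM in the PI7 glands. The 8.55 CPM of G90 replicate 2 rests on 2 UMIs in 80 nuclei. Myoepithelial nuclei had 76.8 ± 43.2 CPM, with 102 and 70.2 CPM in the G90 glands, 39.6 and 40 in the L0 glands, 96.3 and 42.9 in the L20 glands, 134 and 24.2 in the PI2 glands, and 66.7 and 152 CPM in the PI7 glands. No other named class had a mean above 8.2 CPM. Of all JAG2 UMIs, blood endothelial nuclei held 30.5%, myoepithelial nuclei 32.9% and the far more numerous luminal nuclei 18.6%. The order of the leading pair was not settled, since blood endothelium was higher in 6 of 10 glands and the mean difference of 0.35 on the log2 scale was smaller than its SD. The step from myoepithelial down to lymphatic nuclei was 3.48 ± 1.18 in 10 of 10 glands. Luminal nuclei, the partners of the myoepithelium in the ducts and alveoli, had 3.15 ± 1.77 CPM.

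DLL1, a Delta-type ligand, followed a like pattern with the lymphatic endothelium added. It stood at 45.2 ± 20.2 CPM (SD, n = 10) in blood endothelial nuclei, from 17.1 to 78.9 with a median of 42.8. Myoepithelial nuclei were at 39.2 ± 12.2 CPM, with 9 of 10 glands between 32.7 and 52.3 CPM and L20 replicate 2 at 9.38 CPM. Lymphatic nuclei were at 29 ± 18 CPM, and all other classes were at most at 6.3 CPM. Blood endothelial and myoepithelial levels did not differ beyond their spread (0.17 ± 0.89 on the log2 scale), whereas lymphatic nuclei exceeded fibroblasts by 2.23 ± 1.28 in 10 of 10 glands.

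DLL4, the ligand of sprouting endothelium, was endothelial in both vessel types. The level was 86.3 ± 81.7 CPM (SD, n = 10) in blood endothelial nuclei, from 8.55 to 280 with a median of 58.9, and 50.5 ± 30.8 CPM in lymphatic nuclei, from 13 to 115 with a median of 41.8. The lowest blood endothelial value rests on 2 UMIs in the 80 nuclei of G90 replicate 2. The blood vessels were not consistently the higher, at 0.50 ± 1.57 on the log2 scale and in 5 of 10 glands. The lymphatic level exceeded the next class, mural nuclei at 6.25 ± 3.46 CPM, by 2.76 ± 1.15 in 10 of 10 glands. Blood endothelial nuclei held 21.6% of the DLL4 UMIs with 2.91% of all UMIs, and lymphatic nuclei 34.1% with 4.85%. The far more numerous luminal nuclei held 27.4% of the DLL4 UMIs with 58.1% of all UMIs.

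HEY1, a repressor that is a direct target in endothelium, was sparse. It reached 21.1 ± 15.4 CPM (SD, n = 10) in blood endothelial nuclei, from 0 to 47.7 with a median of 18.6, and these levels rest on 0 to 53 UMIs per gland. All other named classes had means of at most 6.3 CPM. Blood endothelium exceeded dividing nuclei, the next class, by 2.17 ± 1.85 on the log2 scale in 9 of the 9 glands where both could be scored. Dividing nuclei had only 0 to 6 HEY1 UMIs per gland. The gland left out, L0 replicate 2, had 0 HEY1 UMIs in blood endothelium. At PI7 luminal nuclei came near, at 12.8 and 18.3 CPM against 15.3 and 20.1 CPM in blood endothelium. Blood endothelium held 11.4% of the HEY1 UMIs with 2.91% of all UMIs, and luminal nuclei 51.1% with 58.1%.

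HES1, a repressor that is read as a general target of the pathway, had no distinct leading class. Mean levels were 62.3 ± 59.3 CPM (SD, n = 10) in luminal, 58.1 ± 39.8 in lymphatic endothelial and 52.1 ± 36.3 CPM in blood endothelial nuclei. The neighbours at the top of its order differed by less than their spread, with 0.17 ± 0.87 between lymphatic and blood endothelium and 0.14 ± 1.37 between blood endothelium and luminal nuclei. Macrophages were near the bottom at 13.8 ± 9.37 CPM. Luminal nuclei held 63.8% of its UMIs, near their 58.1% share of all UMIs, with levels from 3.85 to 184 CPM between glands.

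Endothelial nuclei were then clustered on their own, with the 10 genes left out of the genes used for clustering. One sub-cluster of 377 nuclei, with at least 20 nuclei in 7 glands, was arterial by its markers, and its leading genes were SEMA3G, GJA5, TMEM100, JAG2 and BMX. In these nuclei JAG2 was at 573 ± 244 CPM (SD, n = 7) against 35.1 CPM in all other endothelial nuclei of the same glands, a log2 difference of 4.17 ± 0.77 in 7 of 7 glands. Gland by gland, arterial JAG2 counted 711 CPM in G90 replicate 1, 477 in L0 replicate 1, 918 and 168 in L20, 413 in PI2 replicate 1, and 704 and 621 CPM in PI7. The L20 pair held both the highest and the lowest of them, and the lowest still lay above the mean of the other endothelial nuclei. Comparisons of sub-clusters are descriptions, since genes that move with the members shaped the clusters. The other endothelial nuclei were mostly lymphatic, as the lymphatic class had 8009 nuclei and the blood endothelial class 3686. For a blood vessel sub-cluster, a difference from them therefore includes that between blood and lymphatic vessels. The part of this makeup was not tested.

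JAG1, NOTCH4 and DLL4 also had their highest mean in the arterial sub-cluster. JAG1 was at 508 ± 129 CPM against 132 (log2 difference 1.93 ± 0.45), with all 7 glands between 353 and 744 CPM. NOTCH4 was at 461 ± 187 CPM against 59.8 (3.18 ± 0.93), with glands from 210 to 715 CPM. DLL4 was at 170 ± 83.2 CPM against 65.7 (1.39 ± 0.82). Each of these was higher in 7 of 7 glands. Of the targets, HEY1 was at 81.9 ± 36.8 CPM against 8.37 (3.41 ± 1.23, on 1 to 27 UMIs per gland). The related HEY2, a known arterial repressor, was at 84.3 ± 38.2 CPM against 3.04 (4.54 ± 0.59). Both were higher in 7 of 7 glands. HES1, the other target among the members, is not given for these nuclei. In contrast DLL1 was at 17.9 ± 30.5 CPM against 39.4 and higher in only 2 of 7 glands, and LFNG, a glycosyltransferase that modifies Notch receptors and shifts their ligand preference, was at 99.7 ± 50.6 CPM against 186 and higher in 0 of 7. As a class, lymphatic endothelium had a higher LFNG mean than blood endothelium, as given below, and lymphatic nuclei are most of those compared here.

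**Figure D2:**
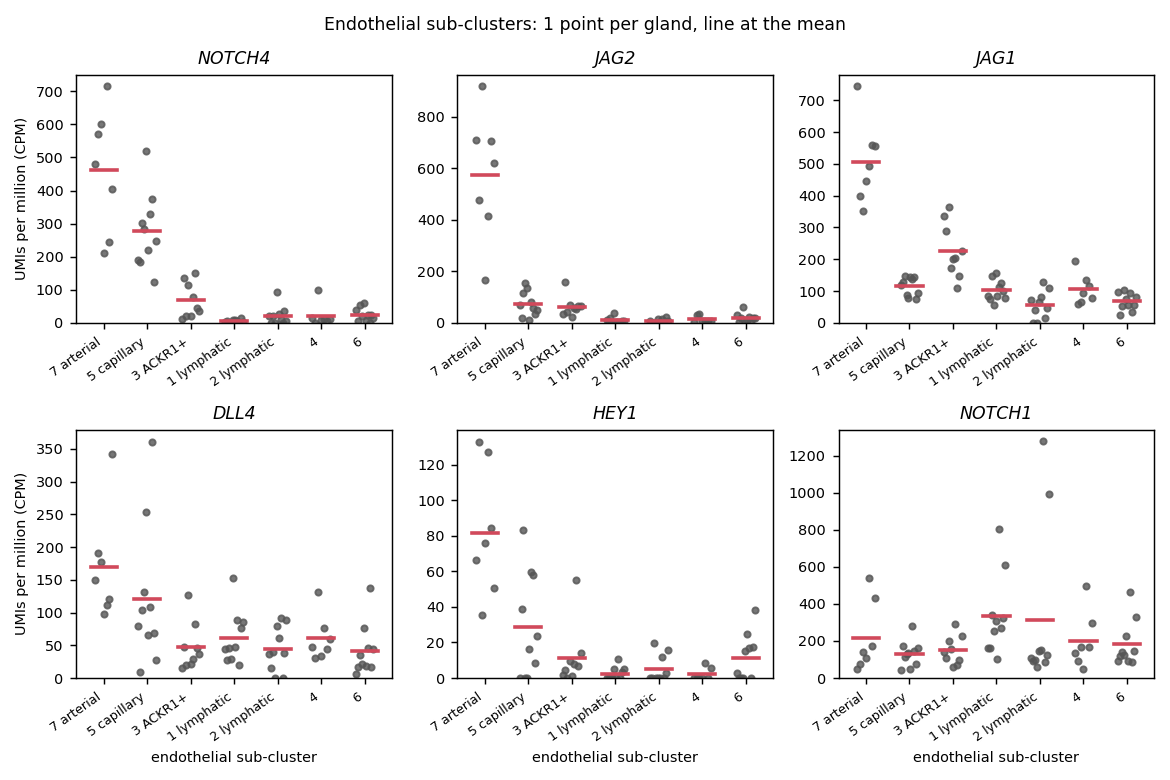
Levels (CPM) of Notch genes in the endothelial sub-clusters, with 1 point per gland that had at least 20 nuclei and a line at the mean. The arterial mean is the highest for JAG2 (573), JAG1 (508), NOTCH4 (461), DLL4 (170) and HEY1 (81.9), and the lymphatic sub-clusters lead for NOTCH1 (334 and 314).

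Capillary nuclei (1226, in 10 glands) shared NOTCH4 with the arteries, at 278 ± 113 CPM against 41.6 CPM in the other endothelial nuclei, with a log2 difference of 3.05 ± 1.11 in 10 of 10 glands. Their DLL4 was at 121 ± 108 CPM and their JAG2 at 72.4 CPM. A sub-cluster of 1854 nuclei that was left unnamed and led with the venous-type genes ACKR1 and SELP also had more JAG1 than the rest, but less DLL4. There, in 9 glands, JAG1 was at 227 ± 85.5 CPM against 111 (0.96 ± 0.57, higher in 9 of 9) and DLL1 at 62.3 ± 33.8 CPM against 30.7 (higher in 8 of 9), while DLL4 was at 47.2 CPM against 81 and higher in 0 of 9. The lymphatic sub-clusters had NOTCH1 at 334 ± 216 CPM (3930 nuclei) and 314 ± 439 CPM (2202 nuclei, a median of only 783 UMIs each). An unnamed sub-cluster of 1288 nuclei, of which 1285 were of the lymphatic class, had NOTCH1 at 200 ± 152 CPM in 7 glands. A further 818 nuclei led with the luminal genes ELF5, EHF and CSN1S1 and were left unnamed, with NOTCH1 at 182 CPM.

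Within the luminal nuclei, the hormone-sensing sub-cluster (2211 nuclei, 78 to 459 per gland, raising all 6 of its markers) had more JAG1 and less NOTCH1 and NOTCH2 than the other luminal nuclei. Its JAG1 was at 78.6 ± 38.1 CPM (SD, n = 10) against 28.4 ± 18.1 CPM in the other luminal nuclei, a log2 difference of 1.48 ± 0.89, and was higher in 10 of 10 glands. Hormone-sensing JAG1 counted 114 and 98.2 CPM in the G90 glands, 39.5 and 14.1 in the L0 glands, 77.6 and 132 in the L20 glands, 112 and 36.8 in the PI2 glands, and 80.2 and 80.8 CPM in the PI7 glands, against 19.9 and 10, 8.66 and 8.96, 29.1 and 39.4, 45.2 and 22.1, and 63.5 and 37.3 CPM in the rest. The ratio was smallest in PI7 replicate 1. NOTCH2 was at 265 ± 169 CPM against 567 ± 138 (log2 difference -1.31 ± 0.86) and lower in 10 of 10 glands. NOTCH1 was at 47.4 ± 30 CPM against 105 ± 89 (-1.13 ± 0.90) and lower in 9 of 10. LFNG was higher in 10 of 10 glands, at 39 ± 25.6 CPM against 14.6 ± 10.8 CPM, and MAML2, a Mastermind coactivator, was lower in 10 of 10, at 757 CPM against 1500 CPM. The remaining receptors and ligands showed no difference beyond its SD except NOTCH4, at 2.07 CPM against 4.93 CPM and lower in 7 of 10. DLL1 was at 8.64 against 2.47 CPM (higher in 7 of 10), DLL4 at 3.45 against 4.75 CPM, JAG2 at 4.33 against 3.01 CPM and NOTCH3 at 19.4 against 21.3 CPM. HES1 was at 69.5 against 60.8 CPM. HEY1 was not detected in 6 of 10 glands in these nuclei and is too sparse there to compare.

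**Figure D3:**
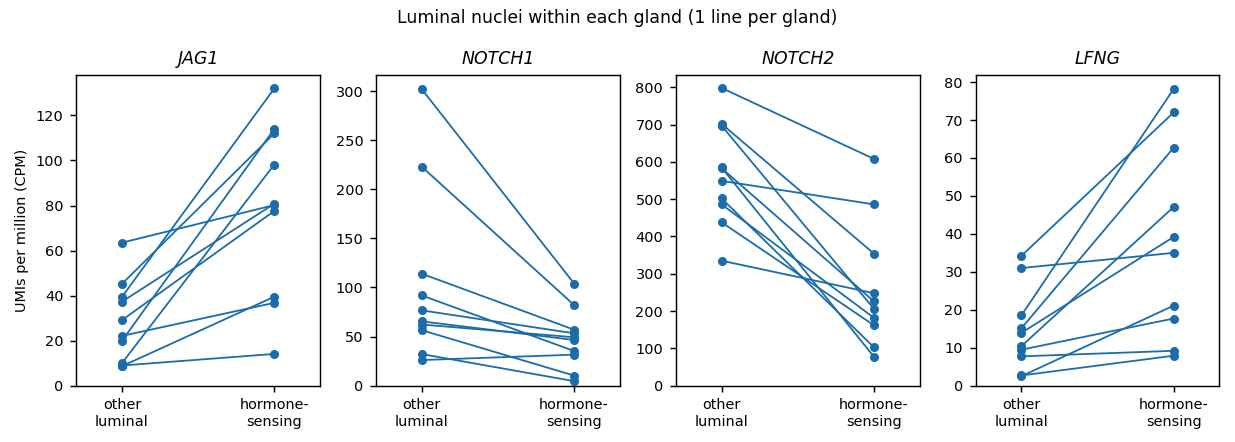
Levels (CPM) in hormone-sensing and in all other luminal nuclei, with 1 line per gland joining both values. The JAG1 lines rise toward the hormone-sensing nuclei in 10 of 10 glands, and the NOTCH2 lines fall in 10 of 10.

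The rest of the pathway was read from a list of 59 further genes. RBPJ, the DNA-binding partner, was at 1317 ± 1104 CPM (SD, n = 10) in macrophages, from 477 to 4288 CPM, against means of 135 to 326 CPM in the other named classes. MAML2 was abundant throughout, from 512 CPM in macrophages to 1671 ± 642 CPM in fibroblasts. Among targets, HEY2 was at 53.6 ± 62.9 CPM in mural and 49.9 ± 34 CPM in myoepithelial nuclei, and HEYL, a target in vascular smooth muscle, was at 45.8 ± 39.8 CPM in mural nuclei and 12.5 CPM in fibroblasts. HES4 was low and endothelial (14.8 CPM in blood and 13 CPM in lymphatic vessels), and HES5 and NRARP, with 11 and 3 UMIs in all nuclei, were too sparse to place. Of the glycosyltransferases, LFNG led in lymphatic (175 ± 121 CPM) and blood endothelium (103 ± 32.2 CPM) against 17 CPM in luminal nuclei, and MFNG in T and NK nuclei (32.9 CPM) and blood endothelium (27.2 CPM). Of 3 genes chosen after their values were seen, the Notch-interacting ligase gene DTX1 was at 188 ± 65.9 CPM in lymphatic endothelium against at most 32.9 CPM elsewhere, DLK2 at 52.8 ± 51.4 CPM in myoepithelium against at most 2.65 CPM, and HES2 at 27.5 CPM in blood endothelium against at most 0.424 CPM.

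The genes whose levels ran most alike with a member's were ranked by Pearson's r of log2(CPM + 1) over 94 sums of a class in a gland, which share libraries and depth and are not independent. DLL4 was most like ROBO4 (0.85), APOLD1 (0.82) and SOX18 (0.82), and JAG1 like CALD1 (0.82), RBPMS (0.81) and EHD2 (0.81). NOTCH4 was most like ACKR1 (0.77), FLT1 (0.69) and ADGRF4 (0.68), and NOTCH3 like PDGFRB (0.70), KCNAB1 (0.70) and REM1 (0.69). For DLL1 the genes were PDLIM4 (0.75), VWA1 (0.73) and ZNF521 (0.73), and for JAG2 VWA1 (0.73), DACH1 (0.69) and ENPP2 (0.69), so VWA1 was listed for both ligands. HEY1 ran most like CD34 (0.72), IRF2BP2 (0.68) and BMI1 (0.67), and HES1 like HIF1AN (0.66), FUT1 (0.65) and TRIM16 (0.64). NOTCH1 ran most like SUN1 (0.74), TAOK2 (0.73) and ATP11A (0.71), and NOTCH2 like PLEKHA5 (0.74), SLC16A7 (0.72) and BMPR1A (0.65).

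The stages were compared first in the sum of all kept nuclei of a gland, where fewer cells of a type and less RNA per cell cannot be told apart. Across the stages no member passed the test in any of 5 comparisons (L0 against G90, L20 against L0, PI2 against L20, PI7 against PI2, and lactation against the other stages). The test was edgeR's quasi-likelihood test over 22695 genes with Benjamini-Hochberg adjustment, and a call needed an adjusted p under 0.05 and a log2 fold change beyond 1. Over all genes it called 0% in each of the 5 comparisons, so the members' 0 of 10 equals that background. DESeq2, as an alternative, also called 0 of 10 members, while it called 392, 1157, 17, 13 and 120 genes in the 5 comparisons. The p-values rest on 2 sows per stage.

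The spread between the sows of a stage was large for most members. NOTCH1 counted 86.6 and 112 CPM in the G90 glands, 30.8 and 65.5 in the L0 glands, 86.4 and 33 in the L20 glands, 313 and 35.5 in the PI2 glands, and 84 and 219 CPM in the PI7 glands. HES1 counted 53.9 and 19.6 CPM in the G90 glands, 4.6 and 11.3 in the L0 glands, 58.4 and 15.6 in the L20 glands, 147 and 20.1 in the PI2 glands, and 77.5 and 94.2 CPM in the PI7 glands. For some members the sows at PI2 differed most, 8.82-fold for NOTCH1, 15.1-fold for NOTCH3, 11.2-fold for HEY1 and 7.31-fold for HES1, with replicate 1 the higher each time. The same held for JAG2 (4.9-fold) and DLL1 (5.53-fold). The widest pair was at G90 for NOTCH4, JAG1 and DLL4, and at L0 for NOTCH2. The PI2 glands held 1739 and 181 lymphatic endothelial and 1579 and 188 fibroblast nuclei, and the part of this makeup was not tested. Class by class, PI2 replicate 1 was above replicate 2 in 8 of 8 classes for NOTCH1, NOTCH3, JAG1 and DLL1, in 7 of 8 for HEY1 and HES1, in 6 of 8 for JAG2, and in 4 of 8 for NOTCH2, NOTCH4 and DLL4. NOTCH1 in PI2 replicate 1 was the highest of all glands in 8 of 8 classes. The classes of a gland share 1 library, so these counts repeat 1 pair of sows and are not independent. Some values rest on few UMIs, such as mural HES1 with 0 UMIs in PI2 replicate 2. How many of all genes had the same order was not counted. The 3 glands with the highest NOTCH1 (PI2 replicate 1, PI7 replicate 2 and G90 replicate 2) were also those with the lowest share of mitochondrial UMIs, at 0.199%, 0.475% and 0.153%, and the part of that in the NOTCH1 level was not tested.

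NOTCH2 behaved otherwise, and the sows of a stage differed by only 1.02 to 1.43-fold. It counted 380 and 317 CPM in the G90 glands, 754 and 529 in the L0 glands, 468 and 457 in the L20 glands, 376 and 456 in the PI2 glands, and 423 and 453 CPM in the PI7 glands. Both L0 glands lay above all others. The log2 fold change from G90 to L0 was 1.27 ± 0.48 (SE), with an adjusted p = 0.581 by edgeR.

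JAG1 and DLL4 had lower values at L0 than at L20. JAG1 counted 54.7 and 14.2 CPM in the G90 glands, 17.6 and 13 in the L0 glands, 50.9 and 100 in the L20 glands, 80.7 and 25 in the PI2 glands, and 85.6 and 66 CPM in the PI7 glands. Its log2 fold change from L0 to L20 was 1.71 ± 0.63 (SE, adjusted p = 0.294 by edgeR). DLL4 counted 5.07 and 1.22 CPM in the G90 glands, 3.21 and 2.17 in the L0 glands, 16.8 and 8.89 in the L20 glands, 13.1 and 7.49 in the PI2 glands, and 15.3 and 13.9 CPM in the PI7 glands, with a log2 fold change of 1.85 ± 0.72 from L0 to L20 (adjusted p = 0.316 by edgeR). The differences of JAG1 and DLL4 did not pass the adjusted test. The makeup of the glands moved with them. Luminal nuclei were 9216 of 11442 and 7540 of 9392 at L0, and 7923 of 12193 and 2843 of 15148 at L20. The L20 glands were thus unlike each other, and L20 replicate 2 held 3966 fibroblast, 1827 lymphatic endothelial and 548 adipocyte nuclei. The paper reports epithelial cells as the majority at that stage. All comparisons with L20 and of lactation include L20 replicate 2, so the pair cannot be taken as alike. Mitochondrial UMIs were 0.61% and 0.72% at L0 and 2.09% and 1.73% at L20. The part of either in these differences was not tested. Against the other stages, lactation was lower for HES1, with a log2 difference of -1.62 ± 0.64 (adjusted p = 0.86 by edgeR), and for NOTCH3, at -1.43 ± 0.64 (adjusted p = 0.899), though the groups of glands overlapped.

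The remaining members are given here for the sum of all nuclei. NOTCH3 counted 27.1 and 6.06 CPM in the G90 glands, 8.16 and 5.09 in the L0 glands, 10.8 and 14.5 in the L20 glands, 53.4 and 3.53 in the PI2 glands, and 34.7 and 57.2 CPM in the PI7 glands. NOTCH4 ranged from 3.07 to 17 CPM, JAG2 from 2.42 to 20.3, DLL1 from 1.11 to 16.2 and HEY1 from 0.302 to 15.5 CPM over the 10 glands. L0 replicate 2 was the lowest gland for each of the last 4 genes.

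**Figure D4:**
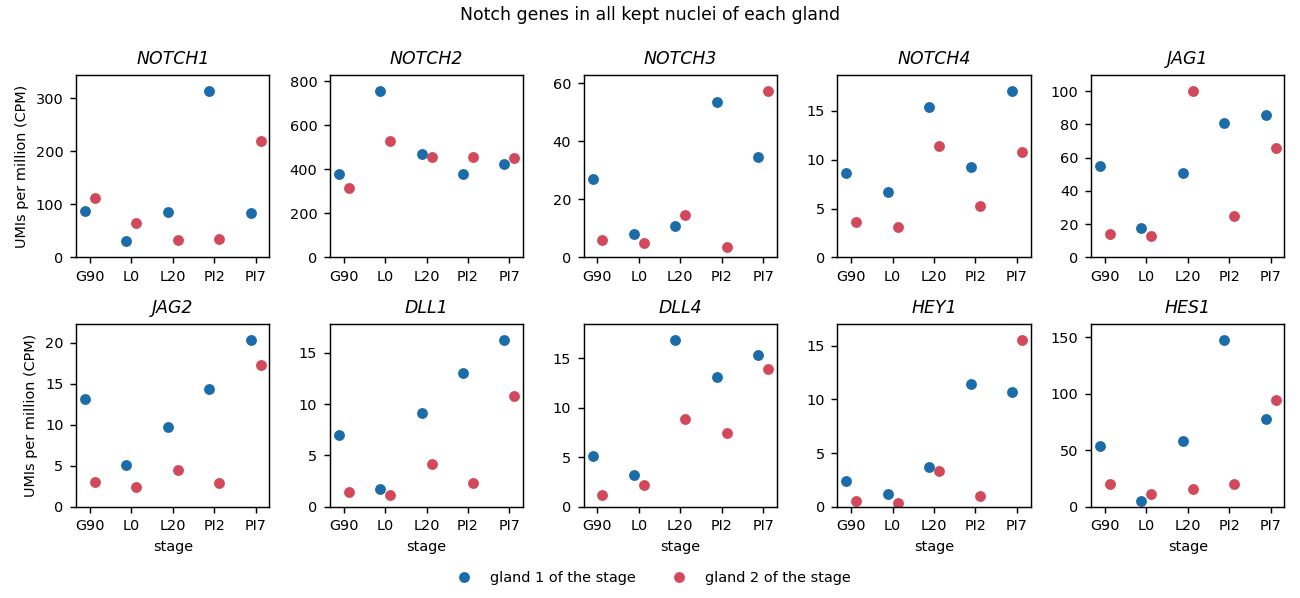
Levels (CPM) of the 10 Notch genes in the sum of all kept nuclei, with 1 point per gland by stage. For NOTCH2 both L0 glands lie highest, while for NOTCH1, NOTCH3 and HES1 the PI2 glands lie far apart.

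Counted at an unadjusted p under 0.05, the members were 1, 2, 0, 0 and 2 of 10 in the 5 comparisons in the order given, beside 7.28%, 12.8%, 3.6%, 2.04% and 5.49% of all genes tested by edgeR. Their median log2 fold changes were -0.59, 1.36, 0.37, 0.32 and -0.91, beside medians of -0.17, 0.24, 0.03, 0.02 and -0.03 over all genes. Of the pathway list, 55 genes could be tested, 0 were called in any comparison and 6, 7, 2, 1 and 5 had an unadjusted p under 0.05.

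Within luminal nuclei, which hold most of the UMIs, the same comparisons were made over 20546 genes. Again 0 of 10 members were called, beside 0% of all genes in the comparisons between neighbouring stages and 0.00973% (2 genes) for lactation against the other stages. At an unadjusted p under 0.05 there were 2, 5, 0, 0 and 3 members, beside 8.49%, 11.4%, 2.86%, 2.23% and 6.68% of all genes, and the median log2 fold changes were -0.73, 1.40, 0.13, 0.21 and -0.90 beside -0.10, 0.12, 0.08, -0.01 and -0.02 over all genes. The pathway list had 53 genes tested and 0 called, with 8, 9, 1, 1 and 5 at an unadjusted p under 0.05.

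The comparison of L20 with L0 held the most luminal members below that unadjusted limit, all in the direction of more at L20. Mitochondrial UMIs in luminal nuclei were also apart between these stages, at 0.26% and 0.337% at L0 and 0.818% and 0.702% at L20. Median depth was 2211 and 1809 UMIs per luminal nucleus at L0, and 1520 and 926 at L20. L20 replicate 2 held 2843 luminal nuclei beside 3966 fibroblast and 1827 lymphatic endothelial ones, and free RNA was not removed. The part of any of these in the result was not tested. DLL1 counted 0.372 and 0.117 CPM at L0 and 5.76 and 3.48 CPM at L20, with a log2 fold change of 3.79 ± 1.07 (SE) and an adjusted p = 0.236 by edgeR. HEY1 counted 0.372 and 0.35 CPM at L0 and 2.88 and 9.12 CPM at L20 (log2 fold change 3.33 ± 1.16, adjusted p = 0.312 by edgeR). At such levels of DLL1 and HEY1 a L0 gland holds few UMIs. The same direction was found for JAG1 (1.52 ± 0.55, adjusted p = 0.324 by edgeR), DLL4 (2.18 ± 0.85, adjusted p = 0.366) and HES1 (2.11 ± 0.92, adjusted p = 0.418).

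Luminal HES1 counted 65 and 20.6 CPM in the G90 glands, 3.85 and 10.6 in the L0 glands, 49 and 34.9 in the L20 glands, 184 and 20.3 in the PI2 glands, and 108 and 128 CPM in the PI7 glands. Its log2 difference between lactation and the other stages was -1.95 ± 0.61 (SE), with an adjusted p = 0.514 by edgeR, and the L20 glands overlapped with those at G90 and PI2. Luminal NOTCH3 (-1.63 ± 0.66) and HEY1 (-1.66 ± 0.72) had like differences, with adjusted p = 0.659 and 0.706 by edgeR. DESeq2 on the same sums called 3 luminal results that edgeR did not. These were DLL1 (log2 fold change 3.85, adjusted p = 0.0059) and HEY1 (3.44, adjusted p = 0.0294) for L20 against L0, where DESeq2 called 3.79% of all genes, and HES1 (-1.89, adjusted p = 0.0423) for lactation against the other stages, where it called 1.17%.

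Luminal NOTCH2 counted 458 and 333 CPM at G90 and 795 and 548 CPM at L0 (log2 fold change 1.18 ± 0.46, adjusted p = 0.484 by edgeR). It then counted 563 and 662 CPM at L20, 409 and 491 at PI2, and 627 and 559 CPM at PI7, so L0 replicate 1 remained the highest gland, while L0 replicate 2 lay below both L20 and both PI7 glands, unlike in the whole gland. In the other classes tested, 0 members and 0% of all genes were called by edgeR in every comparison that could be made, and dividing nuclei were tested only for PI2 against L20 and PI7 against PI2.

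Milk cells gave another view of the pathway, with neutrophils and macrophages in place of stroma and vessels. The neutrophil name rests on the marker list used here and departs from the paper. The paper reports monocytes and no neutrophils in milk. Its monocyte markers include MMP8, CSF3R and IL1R2, which are in the neutrophil list here. Among the milk classes given here, NOTCH2 was highest in neutrophils, at 902 CPM (exact Poisson 95% interval 886 to 918) at L0 and 1350 CPM (1327 to 1373) at L20. A NOTCH2 UMI was seen in 55.3% and 64.0% of these 10635 and 8248 cells, against 11.2% and 13.3% of the milk T and NK cells, although T and NK cells were deeper, at medians of 1592.5 and 1544.5 UMIs against 1101 and 1060. T and NK cells were at 92.5 and 106 CPM, macrophages at 281 and 200 CPM, and luminal cells at 38.9 and 48.8 CPM. The luminal cells were far deeper, at medians of 17523 and 2387 UMIs, and had a NOTCH2 UMI in 44.3% and 22.0%, so their shares are not comparable with those of neutrophils. Over all milk cells NOTCH2 was at 213 CPM at L0 and 414 CPM at L20, and at 124 and 178 CPM once cells under 500 genes or over 10% mitochondrial UMIs were left out. With 1 library per stage there is no test between stages, and intervals cover counting error only.

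JAG1 was highest in milk macrophages in both libraries, and HES1 at L0 only. Macrophage HES1 stood at 114 CPM (107 to 122) at L0 and 26.3 CPM (24.1 to 28.7) at L20, and macrophage JAG1 at 58.6 CPM (53.7 to 63.8) and 23.7 CPM (21.6 to 25.9). The macrophages had a median of 2152 UMIs at L0 and 3335 at L20, and the shares of their clusters differed, as given below. The part of either was not tested. JAG1 was at most at 2.74 CPM in neutrophils and luminal cells. HES1 in neutrophils was 68.1 and 76.8 CPM, in luminal cells 39.7 and 42.1 CPM, and in T and NK cells 24.7 and 11 CPM, so the macrophages were above neutrophils at L0 and below them at L20. NOTCH1 was highest in T and NK cells (29.3 and 34.8 CPM). JAG2, DLL4, NOTCH3 and HEY1 were under 1 CPM in milk as a whole.

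**Figure D5:**
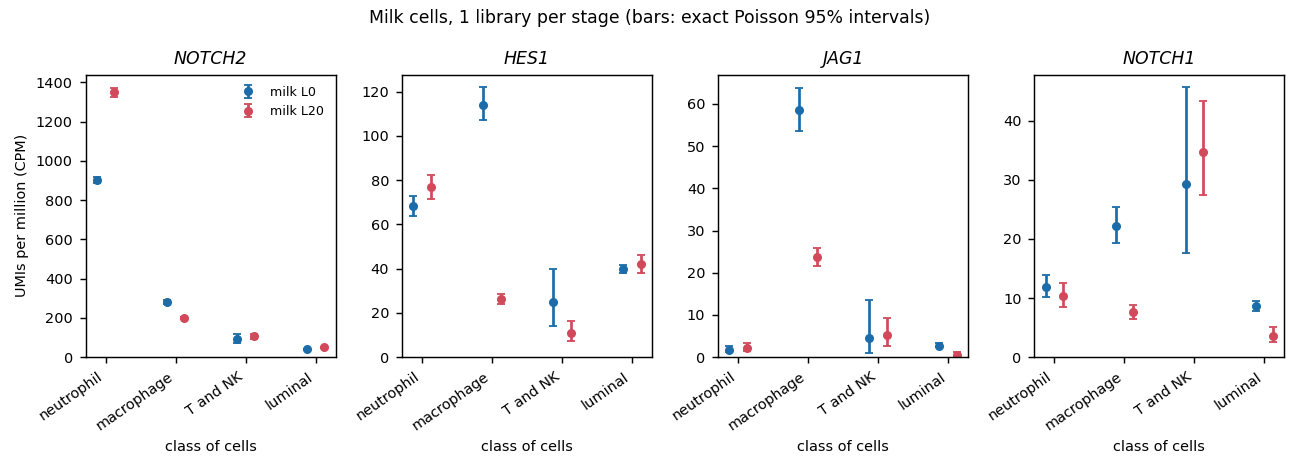
Levels (CPM) in the classes of milk cells at L0 and L20, with 1 library per stage and bars for exact Poisson 95% intervals. NOTCH2 stands highest in neutrophils in both libraries, and JAG1 in macrophages.

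The neutrophils were themselves uneven. Their 3 clusters had HES1 at 149, 62 and 9.01 CPM, with NOTCH2 at 1307, 858 and 937 CPM in the same order. These values pool both milk libraries, and in that order the clusters took 25.2%, 49.9% and 24.8% of the neutrophils at L0 and 24.1%, 57.3% and 18.5% at L20. Among macrophage clusters, pooled in the same way, NOTCH2 ran from 78.8 to 898 CPM and JAG1 from 7.66 to 96.3 CPM, and a single cluster held the highest value of both. The macrophage clusters took 37.2%, 17.7%, 24.2% and 20.9% of the macrophages at L0. In the same order they took 28.9%, 29%, 21.8% and 20.3% at L20.

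The sections counted all members in whole tissue, where a spot can hold several cells. Over all spots NOTCH3 was at 49.5 CPM (exact Poisson 95% interval 47.5 to 51.7) at G90 and 96.1 CPM (91.6 to 101) at PI2, and NOTCH1 at 139 CPM (136 to 143) and 82.8 CPM (78.7 to 87.1). JAG2 was at 32.7 and 57.9 CPM, JAG1 at 45.9 and 39.6 CPM, NOTCH4 at 15.6 and 15.9 CPM, and DLL1 at only 1.38 and 1.17 CPM. NOTCH2 was at 76.6 and 95.4 CPM, HES1 at 74.1 and 83, DLL4 at 11.2 and 12.1, and HEY1 at 9.69 and 9.88 CPM. A section is 1 library, so these pairs carry no test of stage.

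Spots were ranked by the full marker lists, and the mural list does not separate mural from myoepithelial cells, so the spots richest in it may be rich in either. In the 10% of spots richest in mural markers NOTCH3 was at 356 CPM (319 to 397) at PI2 against 81.9 CPM (77.7 to 86.3) in the rest, and at 78.9 CPM (69.6 to 89.1) against 47.1 CPM (45 to 49.3) at G90. The spots chosen by myoepithelial markers had NOTCH3 at 185 CPM against 87.2 CPM at PI2 and at 71 CPM against 47.6 CPM at G90. The spots chosen by blood endothelial markers gave 237 CPM against 86.8 CPM at PI2, and 109 CPM against 45.9 CPM at G90, where the excess was larger than by mural markers. JAG1 in the spots chosen by mural markers was at 95.2 CPM against 36.6 CPM at PI2 and at 70.7 CPM against 43.9 CPM at G90. In the same spots NOTCH4 was at 39 CPM against 14.6 CPM at PI2 and at 27.6 CPM against 14.6 CPM at G90. DLL4 was at 42.2 CPM against 10.9 CPM in lymphatic-marker spots at PI2 and at 19.3 CPM against 10.8 CPM at G90.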

How the data were processed

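Nuclei and milk cells were profiled with GEXSCOPE kits and sections with Visium. The authors made UMI counts per gene and barcode with CeleScope (nuclei, milk) and Space Ranger 1.2.0 (sections) on Sscrofa11.1, with Seurat 4.3.0 also named in the submitters' processing notes. The deposited counts are raw, with no removal of free RNA or doublets. Stages came from the labels. The milk titles use letters that mark other stages in the nuclei titles, so the milk stages follow the source names.

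Nuclei and cells under 300 genes or over 25% mitochondrial UMIs were left out. The rest were normalised to 10000 UMIs, reduced to 15 components of 2000 variable genes, integrated over libraries with Harmony and clustered at resolution 0.3. These steps, Harmony included, were run in Python 3.11.15 code written for the purpose (numpy 2.4.6, scikit-learn 1.9.0). A cluster took the name of the list with the highest share of its markers raised 2-fold, with at least 3 raised. A tie in that share was broken by the number of raised markers, which was chosen after seeing the data. Doublets were kept in the main results. Scrublet was run through scanpy 1.11.5. Its automatic threshold failed in 9 of 10 glands, so the alternative without the top 6% of scores was also chosen after seeing the data. Levels need 20 nuclei of a class in a gland, and a pseudocount of 1 CPM was used on the log2 scale. Gene symbols came from the files (15983 of the 30071 IDs) or, for 4 of the 59 pathway genes, from the RefSeq annotation.

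Counts were summed per gland and class and tested with edgeR 4.0.16 (TMM, filterByExpr, quasi-likelihood test, 5 stages in 1 fit, R 4.3.3) in classes with 20 nuclei in at least 8 glands. The SE of an edgeR log2 fold change was derived from the test, as its absolute value divided by the square root of F. The script was checked on simulated data. DESeq2 1.42.0, other normalization, filters, clusterings and left-out glands were alternatives. Sections and milk have 1 library per stage and were given exact Poisson intervals, which cover counting error only, as UMIs of 1 library say nothing of the spread between animals. Replicates are different sows, and their numbers do not pair them.

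The members, the pathway list and the markers were chosen with earlier results of these data known. Values are given for all members, for genes of the pathway list that were called, for a fixed set of its cofactors, glycosyltransferases and targets, and for the 3 genes most like each member. DTX1, DLK2 and HES2 were added after their values were seen. Protein sequences are not used here, and the upstream windows of members other than DLL1 are not shown here.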

Additional observations from a re-analysis of the deposited data

How the results depend on the processing

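In the whole gland and luminal nuclei, 15 log2 fold changes of members had an unadjusted p under 0.05 by edgeR. They include luminal HES1 for L0 against G90 (-2.05 ± 0.91, SE, adjusted p = 0.571 by edgeR), which is not given above. All 15 kept their direction under the alternatives run. Of these alternatives 275 stayed on the same side of the threshold and 5 passed it, all in luminal nuclei. Members called within a class numbered 0 by edgeR, 3 by DESeq2 and 2 without a filter on low counts (DLL1, log2 fold change 3.84, adjusted p = 0.0396, for L20 against L0, and HES1, -1.99, adjusted p = 0.0231, for lactation against the other stages), and 0 when each gland was left out in turn. Over all genes of the whole gland, edgeR called 0 in each of the 5 comparisons and without the filter 33, 269, 3, 0 and 28. In luminal nuclei the counts were 0, 0, 0, 0 and 2 by edgeR, 581, 778, 6, 4 and 241 by DESeq2, and 258, 425, 0, 17 and 156 without the filter. With only the glands at G90 and L0, edgeR called 407 genes between them in the whole gland and 1024 in luminal nuclei, and 16 luminal genes between L0 and L20. For L20 against L0 it called 14 without PI2 replicate 1, 15 without PI2 replicate 2 and 2 without L20 replicate 1 in the whole gland, and for lactation 8 without L20 replicate 2. In luminal nuclei it called up to 9 without a gland. The cause of these differences was not tested.

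With the replicate number as a block, 0 members were called in the whole gland and 0 within classes. Deviations of same-numbered glands correlated between -0.52 and 0.39, so the numbers were not used as pairs.

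Of the alternatives for the leading pair of classes of each member, 168 of 170 gave a value within 1 SD, 8 changed the sign of a difference that lay within the spread, and the 5 differences beyond the spread kept their sign in 85 of 85. Between mural nuclei and fibroblasts the NOTCH3 difference was 3.99 without Harmony and 3.75 with a marker gate per nucleus. When milk cells under 500 genes or over 10% mitochondrial UMIs were left out, NOTCH2 moved from 213 to 124 CPM at L0 and from 414 to 178 CPM at L20, and HES1 from 51.7 to 46.8 and from 41.1 to 31.9 CPM. That filter removes shallow cells. Over everything recomputed, 651 alternatives left the result in place, 5 took it past the threshold and 54 moved it; apart from the values named here, those 54 are counts of called genes over all genes. HEY1 and luminal DLL1 are limited by depth, at few UMIs per gland.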
